A study of Homo sapiens with 6 samples.

Results

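The translation factors described here are the 71 protein-coding genes of the deposited expression table whose symbols begin with EIF or EEF followed by a digit, out of 58735 genes in all and 19951 protein-coding genes. The rule uses the name alone, though it was set with earlier results of these data known. The 71 genes were placed in 10 classes by what their products do, from start site selection through elongation. RNA was sequenced from U937, a human myeloid leukaemia line that grows in suspension with monocyte-like properties. Libraries of wild-type U937 cells (n = 3) were compared with libraries of cells labelled shENO1 (n = 3), read here as cells that carry a short hairpin RNA aimed at ENO1, which encodes alpha-enolase of glycolysis. The stated purpose was to see what lowering ENO1 does in this line. All 6 libraries share the U937 background. The labels name no hairpin for the wild-type group, no number of clones and no separate cultures, so an effect of carrying a hairpin cannot be told apart from an effect of low ENO1, and the spread behind each p-value is that between these libraries and may be technical.

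Translation starts when the factors eIF1, eIF1A, eIF2 with its initiator tRNA, eIF3 and eIF5 assemble on the small ribosomal subunit, and the cap-binding complex eIF4F brings that subunit to the mRNA. eIF2 works as a GTPase that eIF2B recharges, and stress kinases that phosphorylate its alpha subunit slow that recharging and so slow initiation in general. During elongation eEF1A delivers aminoacyl-tRNA, the eEF1B subunits recharge eEF1A, eEF2 moves the ribosome along the mRNA, and eIF5A relieves stalls. Many of these genes carry a 5′ terminal oligopyrimidine (TOP) tract, a run of C and T at the transcription start that places their mRNA under control of mTORC1.

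ENO1 itself had 526, 545 and 561 FPKM in wild type and 91.5, 82.7 and 111 FPKM in shENO1, 5.72-fold lower on the means. FPKM counts fragments per kilobase of a gene model, corrected for library size. The change in log2(FPKM + 1), the scale of every log2 fold change below, was -2.51 (SE 0.14, limma adjusted p = 0.00129). The libraries held 14216739 to 17499636 reads in genes, of which mitochondrial genes took 3.38% to 5.19% in wild type and 5.72% to 7.42% in shENO1. Of 9 myeloid markers, 7 had a mean of at least 1 FPKM, with ELANE and LYZ the highest, whereas 0 of 3 each for T cells, erythroid and epithelial cells did. The summed level of the myeloid markers was 1164 to 1263 FPKM in wild type and 1471 to 1959 FPKM in shENO1. LYZ and ELANE carried that difference in the sum. CSF1R (0.849 to 1.01 FPKM and 1.80 to 2.71 FPKM) and FCGR1A (1.72 to 2.39 FPKM and 3.23 to 4.21 FPKM) were also higher without overlap. MPO, under 1 FPKM, was lower in every shENO1 library. AZU1 (239 to 290 FPKM and 181 to 259 FPKM) and CD33 (11.8 to 13.9 FPKM and 11.6 to 12.0 FPKM) overlapped between groups. So did SPI1 and CD68. The part of these marker differences and of the mitochondrial share in the results below was not tested. The second principal component held 27.3% of the variance and set wild-type library 3 (score -32.2) and shENO1 library 3 (score 34.7) at opposite ends, beyond the other 4 libraries, and so results are also given without these 2 libraries where they rest on them.

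Most translation factors were expressed and most did not pass the test. Of the 71 genes, 64 reached the mean of 1 FPKM required for testing, and 8 of these, 12.5%, differed at an adjusted p under 0.05 (limma, adjusted over all 12809 tested genes). Over all tested genes the share was 14.3%, so the count for the factors lay near the background. The 6 factors that rose were EIF1AX, EIF2S1, EIF2B3, EIF3B, EEF1AKMT4 and EEF2KMT, which is 9.38% of those tested beside 7.86% of all genes. EEF2KMT reached the level for testing only through the shENO1 libraries, in which it is higher, and without it 5 of 63 factors rose, 7.94%. The 2 that fell were EIF1 and EIF4A1, which is 3.13% beside 6.46%. Fewer cells of a kind and less RNA per cell cannot be told apart in such bulk libraries. The median log2 fold change was -0.06 over the factors and -0.02 over all tested genes. Log2 fold changes were small: 36 of the 64 were under 0.25 in absolute size and 1, that of EEF2KMT, reached 1. The values of the low genes EEF2KMT and EEF1AKMT4 depend on the amount added before the logarithm and ran from 0.39 to 2.10 and from 0.30 to 0.97 over the alternatives.

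The groups of 3 libraries did not overlap for 22 of the 64 factors, 34.4% of them, beside 37.5% of all tested genes. In 10 of these factors every shENO1 library was higher (19.6% of all tested genes were like this), and in 12 every shENO1 library was lower (17.9% of all). The calls depended on which libraries were included. The 8 called genes kept their direction when any 1 library was left out, but 0 of the 64 factors passed without wild-type library 1 or without wild-type library 2. Without shENO1 library 1 a single factor was higher and 0 were lower. The counts were 5 higher and 1 lower without wild-type library 3, 5 and 0 without shENO1 library 2, and 3 and 2 without shENO1 library 3. EEF2KMT passed in 4 of these 6 fits, EIF2S1 and EEF1AKMT4 in 3, EIF1, EIF3B, EIF2B3 and EIF4A1 in 1, and EIF1AX in 0. Over all genes the calls dropped in those fits too, from 1007 higher and 828 lower to 147 and 134 without wild-type library 1 and to 214 and 159 without wild-type library 2. Without both wild-type library 3 and shENO1 library 3, 8 factors were called higher and 10 lower, beside 12.9% and 15.9% of all genes, so that 18 of 64 factors were called where 28.7% of all genes were. The added ones were EIF2AK2 and EIF5AL1, higher, and EIF3C, EEF1B2, EEF1D, EIF4A2, EIF2B4, EIF3G, EIF1B and EIF4B, lower, and the 8 of the full comparison were among the 18. A few scalings ended single calls: EIF1 had an adjusted p of 0.0806 after quantile normalisation, EIF3B one of 0.0573 with libraries set to the same FPKM total, and EIF4A1 one of 0.0523 with libraries scaled to nuclear reads. That last scaling moved the calls over all genes from 1007 higher and 828 lower to 1260 and 663. With no filter on low FPKM, EIF1, EIF1AX, EIF3B, EIF2B3 and EIF4A1 missed the threshold.

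**Figure D1:**
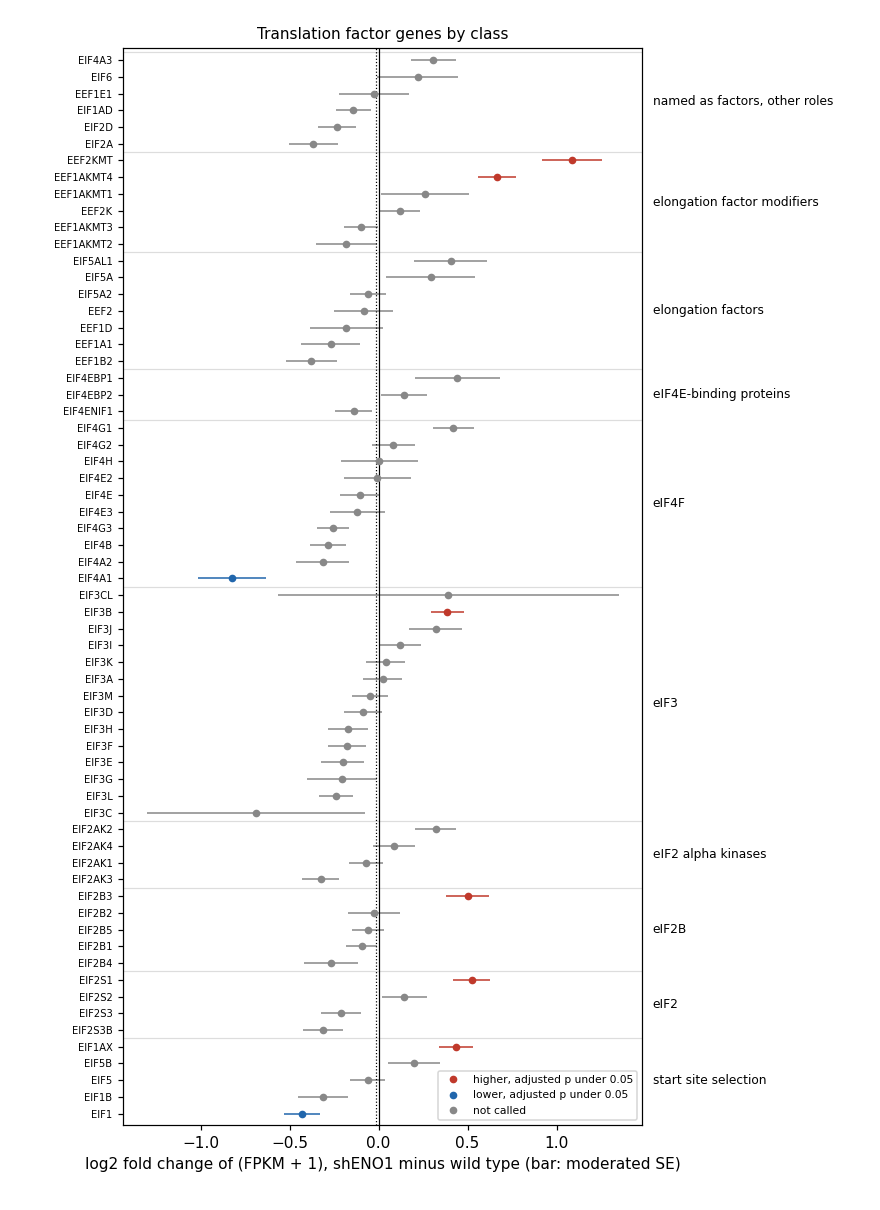
Log2 fold change of (FPKM + 1) in shENO1 minus wild type for the 64 tested translation factors, grouped by class, with points for the estimate, bars for the moderated standard error, red for higher and blue for lower at an adjusted p under 0.05, and a dotted line at the median of all tested genes. The 8 coloured points are spread over 6 of the classes, and most grey points lie within 0.25 of 0.

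Among the factors, EEF1A1 was the most abundant, with a mean level of 1353 FPKM over the 6 libraries. It supplied 32.4%, 33.1% and 35.5% of the summed FPKM of all 71 genes in wild type and 29.8%, 31.7% and 29.5% in shENO1. EEF2 supplied a further 14.4% to 17.1%. The lowest tested factor was EEF2KMT, with a mean of 1.44 FPKM. Together the 71 genes took 1.48%, 1.48% and 1.57% of all FPKM in wild type and 1.33%, 1.32% and 1.41% in shENO1. Their summed level was 4391 ± 255 FPKM in wild type and 4047 ± 399 FPKM in shENO1 (SD, n = 3), a difference smaller than the larger of both SDs.

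Among the genes of start site selection, EIF1 fell and EIF1AX rose. Their products bind the small subunit side by side during scanning. EIF1, which keeps the scanning complex open until a start codon is found, lies at chr17:41688885-41692668 on the plus strand (GRCh38, ENSG00000173812). It stood at 102, 103 and 113 FPKM in wild type and at 77.0, 74.9 and 83.7 FPKM in shENO1. All shENO1 libraries were below all wild-type libraries, and the wild-type mean was 1.35-fold higher (log2 fold change -0.43, SE 0.10, limma adjusted p = 0.0371). EIF1AX, the X-linked gene of eIF1A, lies at chrX:20124518-20141844 on the minus strand (ENSG00000173674). Its levels were 24.1, 23.3 and 22.7 FPKM in wild type and 29.02, 32.3 and 34.7 FPKM in shENO1. Here the 3 shENO1 libraries were the higher ones without overlap, 1.37-fold on the means (log2 fold change 0.44, SE 0.10, limma adjusted p = 0.0324).

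The other members of this class did not pass. EIF1B, a paralog of EIF1, had 30.6, 32.5 and 28.5 FPKM in wild type and 20.3, 24.3 and 29.2 FPKM in shENO1. The groups overlapped through shENO1 library 3 (log2 fold change -0.31, limma adjusted p = 0.185), and without both replicate-3 libraries EIF1B was called lower. EIF5, the GTPase activator of eIF2, had a log2 fold change of -0.06, and EIF5B, which joins the ribosomal subunits, one of 0.20. EIF1AY, the Y-linked counterpart of EIF1AX, was among the genes not tested.

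Of the 3 subunits of eIF2, the alpha subunit alone passed the test, and it rose. EIF2S1, the subunit that the stress kinases phosphorylate, lies at chr14:67359997-67386516 on the plus strand (ENSG00000134001). It stood at 14.7, 15.6 and 17.2 FPKM in wild type and at 22.1, 21.9 and 25.4 FPKM in shENO1. The groups were apart, with a ratio of 1.47 between the means (log2 fold change 0.52, SE 0.10, limma adjusted p = 0.0233). EIF2S3, the gamma subunit that binds GTP and the initiator tRNA, was the most abundant of the complex, at 158, 167 and 189 FPKM in wild type and 143, 152 and 148 FPKM in shENO1. Every shENO1 library of EIF2S3 lay below every wild-type library, but the difference did not pass (log2 fold change -0.21, limma adjusted p = 0.25). EIF2S2, the beta subunit, had 69.5, 74.4 and 72.8 FPKM in wild type and 69.1, 80.2 and 92.0 FPKM in shENO1, overlapping groups with a log2 fold change of 0.14. The retrogene EIF2S3B shares much of its sequence with EIF2S3, so that its 4.65, 5.28 and 6.05 FPKM in wild type and 4.35, 4.13 and 3.77 FPKM in shENO1 are uncertain.

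eIF2B, the exchange factor that recharges eIF2, had 1 subunit of 5 that passed. EIF2B3, the gamma subunit and part of the catalytic core of the complex, lies at chr1:44850522-44986722 on the minus strand (ENSG00000070785). It rose from 5.91, 5.83 and 6.84 FPKM to 8.63, 8.27 and 10.7 FPKM. The groups did not overlap, and the means differed 1.49-fold (log2 fold change 0.50, SE 0.12, limma adjusted p = 0.0399). The 2 most abundant subunits were level. EIF2B1, the regulatory alpha subunit, had 15.8, 14.8 and 16.9 FPKM in wild type and 14.4, 14.6 and 15.3 FPKM in shENO1 (log2 fold change -0.09). EIF2B5, the catalytic epsilon subunit, had 15.6, 17.1 and 14.8 FPKM in wild type and 15.2, 14.7 and 15.5 FPKM in shENO1 (log2 fold change -0.06). EIF2B2 and EIF2B4 did not pass either, at -0.03 and -0.27.

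None of the 4 kinases of eIF2 alpha passed the test. EIF2AK1, the heme-regulated kinase HRI, was the most abundant, at 46.0, 47.9 and 52.7 FPKM in wild type and 44.2, 48.1 and 47.0 FPKM in shENO1 (log2 fold change -0.07). EIF2AK2, the double-stranded RNA sensor PKR, had 9.08, 8.84 and 10.4 FPKM in wild type and 11.5, 13.8 and 10.9 FPKM in shENO1. All 3 shENO1 libraries of EIF2AK2 were the higher ones (log2 fold change 0.32, limma adjusted p = 0.111), and it was called higher without both replicate-3 libraries. The order was the opposite for EIF2AK3, the endoplasmic reticulum stress sensor PERK, at 5.15, 5.07 and 6.35 FPKM in wild type and 4.15, 4.33 and 4.07 FPKM in shENO1 (log2 fold change -0.33, limma adjusted p = 0.0854). EIF2AK4, the amino acid sensor GCN2, had a log2 fold change of 0.09.

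eIF3, the largest initiation factor, was represented by 14 genes, of which 13 did not pass. EIF3B, a scaffold subunit of the core of the complex, lies at chr7:2354086-2380745 on the plus strand (ENSG00000106263). It rose from 27.7, 27.9 and 28.9 FPKM in wild type to 40.0, 34.0 and 37.7 FPKM in shENO1. The wild-type libraries were close to each other and all lay under the shENO1 libraries, with a ratio of 1.32 between the means (log2 fold change 0.39, SE 0.09, limma adjusted p = 0.0412). The most abundant subunit was EIF3I, with 101, 104 and 111 FPKM in wild type and 106, 110 and 130 FPKM in shENO1. EIF3E followed, with 87.0, 94.5 and 97.7 FPKM in wild type and 71.0, 81.9 and 90.3 FPKM in shENO1. Both had overlapping groups, and their log2 fold changes were 0.12 and -0.20. Over the 14 genes the log2 fold changes had a median of -0.07, with 8 below 0 and 6 above, and the summed level was 622 ± 21.1 FPKM in wild type and 609 ± 63.8 FPKM in shENO1.

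EIF3J, a loosely bound subunit, and EIF3L had non-overlapping groups without passing, the first higher in shENO1 and the second lower. EIF3L had 62.2, 64.1 and 67.9 FPKM in wild type and 51.9, 53.7 and 58.5 FPKM in shENO1 (log2 fold change -0.24, limma adjusted p = 0.141), and 51.8% of its exonic bases lay under another annotated gene. EIF3C and EIF3CL are near-identical copies on chromosome 16 between which reads can be split, and each is uncertain. EIF3C, which was called lower without both replicate-3 libraries, was listed at 9.07, 6.60 and 1.28 FPKM in wild type and 2.08, 1.22 and 5.10 FPKM in shENO1, and EIF3CL at 1.80, 16.1 and 1.05 FPKM and then 1.06, 10.3 and 8.56 FPKM. Their sum was 10.9, 22.7 and 2.33 FPKM in wild type and 3.14, 11.5 and 13.7 FPKM in shENO1, so that libraries of 1 group differed more than the groups did.

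In the eIF4F group, which holds the cap-binding proteins, the scaffolds and the helicase with its helpers, EIF4A1 fell. EIF4A1, the RNA helicase that unwinds the leader of the mRNA, lies at chr17:7572706-7579005 on the plus strand (ENSG00000161960). It stood at 10.97, 9.89 and 7.22 FPKM in wild type and at 5.07, 5.79 and 3.69 FPKM in shENO1. All shENO1 libraries lay below all wild-type libraries, 1.93-fold lower on the means (log2 fold change -0.82, SE 0.19, limma adjusted p = 0.0358). Of its exonic bases 48.6% were shared with other annotated genes, among them the readthrough gene SENP3-EIF4A1, and the handling of reads from shared exons was not given in the sources used here. EIF4A2, the paralogous helicase, was listed at higher levels, with 66.9, 68.9 and 59.6 FPKM in wild type and 44.9, 49.6 and 63.4 FPKM in shENO1. Its groups overlapped through shENO1 library 3 (log2 fold change -0.31, limma adjusted p = 0.198), and it was called lower without both replicate-3 libraries.

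The scaffold EIF4G1 came closest to the threshold among the genes that missed it. EIF4G1 had 25.3, 25.9 and 26.3 FPKM in wild type and 35.8, 30.3 and 39.2 FPKM in shENO1, with all shENO1 libraries higher (log2 fold change 0.42, SE 0.11, limma adjusted p = 0.0538). The related scaffold EIF4G3 went the other way, with 17.6, 17.5 and 16.4 FPKM in wild type and 14.5, 14.97 and 13.2 FPKM in shENO1 (log2 fold change -0.26, limma adjusted p = 0.0986). As a ratio within each library, EIF4G3 to EIF4G1 was 0.697, 0.675 and 0.623 in wild type and 0.405, 0.494 and 0.336 in shENO1. The ratios did not overlap, and the log2 ratio, with 1 added to each FPKM, was lower by 0.68 in shENO1 (-0.56 ± 0.08 against -1.24 ± 0.27, SD, n = 3). Permuting the libraries exactly (two-sided) gave p = 0.1, which is as low as 3 against 3 can go, and 0.4 after adjustment over the 8 ratios computed.

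The remaining eIF4F genes did not pass. EIF4H and EIF4B, which stimulate the helicase, were the most abundant of the group. EIF4H had 152, 165 and 120 FPKM in wild type and 138, 115 and 190 FPKM in shENO1, with both groups overlapping and a log2 fold change of 0.00. EIF4B had 78.5, 84.7 and 82.6 FPKM in wild type and 62.8, 65.0 and 73.9 FPKM in shENO1, without overlap (log2 fold change -0.28, limma adjusted p = 0.115), and was called lower without both replicate-3 libraries. EIF4E, the cap-binding protein, was low in FPKM and level, at 3.81, 4.27 and 3.48 FPKM in wild type and 3.07, 3.70 and 3.76 FPKM in shENO1. Its FPKM is set over a long gene model of 14067 bases, and it had 671 to 939 reads a library. Of the other planned ratios, EIF4A2 to EIF4A1 was also without overlap, at 6.09, 6.97 and 8.24 in wild type and 8.86, 8.56 and 17.2 in shENO1 (exact permutation p = 0.1, 0.4 adjusted). Other annotated genes share 48.6% of the exonic bases of EIF4A1 and 17.9% of those of EIF4A2. The size of this ratio is therefore uncertain. The ratios of EIF4G2 to EIF4G1, EIF4E2 to EIF4E, EEF2K to EEF2, EIF3CL to EIF3C and of both binding proteins below to EIF4E overlapped between groups, with exact permutation p-values from 0.2 to 0.7.

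The eIF4E-binding proteins sequester the cap-binding protein until mTORC1 phosphorylates them. EIF4EBP1 had 103, 109 and 85.9 FPKM in wild type and 138, 96.5 and 183 FPKM in shENO1. shENO1 library 2 lay inside the wild-type range, and the gene did not pass (log2 fold change 0.44, SE 0.24, limma adjusted p = 0.254). The value was 0.68 without shENO1 library 2, 0.22 without shENO1 library 3 and 0.12 without both replicate-3 libraries. Its ratio to EIF4E was 26.98, 25.6 and 24.7 in wild type and 45.1, 26.1 and 48.8 in shENO1 (exact permutation p = 0.3). The size of this ratio depends on the gene models, of 1073 bases for EIF4EBP1 and 14067 for EIF4E. In reads a library, EIF4EBP1 had 1277 to 3316 and EIF4E 671 to 939. EIF4EBP2 had 31.4, 32.5 and 39.4 FPKM in wild type and 38.1, 42.1 and 34.0 FPKM in shENO1 (log2 fold change 0.14). EIF4ENIF1, a shuttling eIF4E-binding protein, stood at -0.14 and did not pass.

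**Figure D2:**
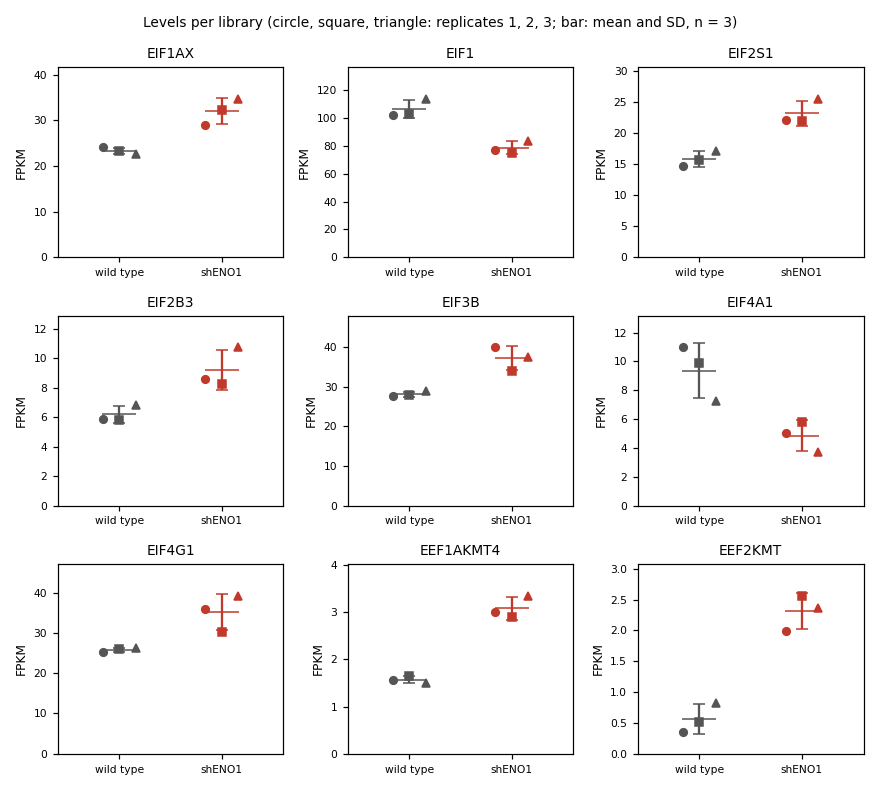
Level of 9 translation factor genes in FPKM, with 1 point per library, wild type on the left and shENO1 on the right of each panel, and the mean with its SD over 3 libraries. In all 9 panels the groups do not overlap; EIF1 and EIF4A1 are the panels in which shENO1 is lower, and EIF4G1 is the panel whose gene missed the threshold (adjusted p = 0.0538).

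No elongation factor passed the test, although the class holds the 3 most abundant factors. EEF1A1 had 1338, 1456 and 1649 FPKM in wild type and 1150, 1197 and 1328 FPKM in shENO1. The groups did not overlap, but the highest shENO1 library lay just under the lowest wild-type library (log2 fold change -0.27, SE 0.17, limma adjusted p = 0.308). Under quantile normalisation EEF1A1 was called lower, at a log2 fold change of -0.66 (adjusted p = 0.0142). EEF2 had 610, 634 and 764 FPKM in wild type and 658, 547 and 689 FPKM in shENO1, with overlapping groups (log2 fold change -0.08, limma adjusted p = 0.765). EEF1B2, the catalytic exchange subunit for eEF1A, had 205, 227 and 202 FPKM in wild type and 146, 151 and 193 FPKM in shENO1. All shENO1 libraries of EEF1B2 were lower, and library 3 was near the wild-type range (log2 fold change -0.38, SE 0.14, limma adjusted p = 0.125). Without both replicate-3 libraries EEF1B2 was called lower, at a log2 fold change of -0.53 (adjusted p = 0.016), as was EEF1D, the other exchange subunit, at -0.52.

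The stall-relieving factor eIF5A is encoded by EIF5A, which had 89.1, 95.7 and 72.3 FPKM in wild type and 96.3, 78.1 and 151 FPKM in shENO1. shENO1 library 3 was the highest of the 6, and the groups overlapped (log2 fold change 0.29, limma adjusted p = 0.472). Its paralog EIF5A2 stood at 2.46 to 2.92 FPKM in all 6 libraries. EEF1A2, the isoform of muscle and neurons, was listed at 0 in 5 libraries and had 1 read in the other. EEF1G, a structural subunit of eEF1B, was listed at 0 in every library. In the annotation 99.9% of its exonic bases lie under a second gene, AP002990.1, which was listed at 0.347 to 0.765 FPKM, and the level of EEF1G could not be read from the table. Summed over the class, elongation factors came to 2463 ± 224 FPKM in wild type and 2144 ± 208 FPKM in shENO1.

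Of the 6 tested enzymes that modify elongation factors, 2 rose, both from a low level. EEF2KMT, a lysine methyltransferase of eEF2, lies at chr16:5084304-5097808 on the minus strand (ENSG00000118894). It had 0.360, 0.511 and 0.831 FPKM in wild type and 1.99, 2.57 and 2.37 FPKM in shENO1, from 17 to 125 reads a library. All shENO1 libraries were higher, with a ratio of 4.07 between the means (log2 fold change 1.09, SE 0.17). Because it reached the level for testing only through the shENO1 libraries, its adjusted p of 0.0125 (limma) carries little weight; in the fit with no filter on FPKM it was 0.0416. The gene shares 29.2% of its exonic bases with ALG1 on the opposite strand, which had 0.874, 0.955 and 1.015 FPKM in wild type and 1.57, 1.65 and 1.98 FPKM in shENO1.

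EEF1AKMT4, a lysine methyltransferase of eEF1A, lies at chr3:184249650-184259585 on the plus strand (ENSG00000284753). It had 1.56, 1.65 and 1.505 FPKM in wild type and 2.996, 2.89 and 3.35 FPKM in shENO1, from 38 to 103 reads a library. The groups were well apart, with a ratio of 1.96 between the means (log2 fold change 0.66, SE 0.11, limma adjusted p = 0.0135). Shared exons covered 46.8% of the gene, and the opposite-strand neighbour CAMK2N2 had 1.75, 1.88 and 4.40 FPKM in wild type and 7.13, 4.98 and 1.79 FPKM in shENO1. Whether the counting used strand was not given in the sources used here, so for both enzymes reads of the neighbour cannot be told apart. The abundant members of the class did not pass. EEF2K, the kinase that inhibits eEF2, had 11.2, 10.4 and 12.0 FPKM in wild type and 13.3, 13.1 and 10.6 FPKM in shENO1 (log2 fold change 0.12). EEF1AKMT3 had 14.8, 13.0 and 13.5 FPKM in wild type and 13.2, 13.4 and 11.7 FPKM in shENO1 (log2 fold change -0.10).

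Genes that carry a factor name but were placed in none of the classes above made up the last class, and none of the 6 tested passed. EIF2A, a separate initiator tRNA-binding protein that is no subunit of eIF2, had 44.0, 44.1 and 55.2 FPKM in wild type and 32.8, 41.7 and 35.8 FPKM in shENO1, without overlap (log2 fold change -0.37, limma adjusted p = 0.124). EIF6, which keeps the large ribosomal subunit from joining too early, had 28.5, 35.2 and 29.1 FPKM in wild type and 35.5, 26.3 and 49.9 FPKM in shENO1 (log2 fold change 0.22). EIF4A3, the helicase of the exon junction complex, was higher and EIF2D, a recycling factor, lower in all shENO1 libraries, at 0.31 and -0.23. The readthrough genes EEF1AKMT4-ECE2 and EEF1E1-BLOC1S5 and the germ-line cap-binding gene EIF4E1B were listed at 0 in every library. EIF4EBP3, with 73.4% of its exonic bases shared, stayed under the level for testing.

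Medians of the classes were close to 0 and to the median of all genes. They ran from -0.11 for eIF4F to 0.19 for the modifiers of elongation factors, and the 45 tested initiation factors and regulators had a median of -0.06 beside -0.08 for the 7 tested elongation factors. For eIF3 the median deviation from the 6-library mean was -0.04, 0.06 and 0.00 in wild type and -0.11, -0.09 and 0.17 in shENO1, so that the shENO1 libraries lay on both sides of all wild-type libraries. shENO1 library 3 was the highest of all 6 libraries for 23 of the 64 factors, and wild-type library 3 for 17. In 21 factors wild-type library 3 was the lowest of its group while shENO1 library 3 was the highest of its own, and in 8 the reverse held. Without both replicate-3 libraries the eIF4F median was -0.27.

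**Figure D3:**
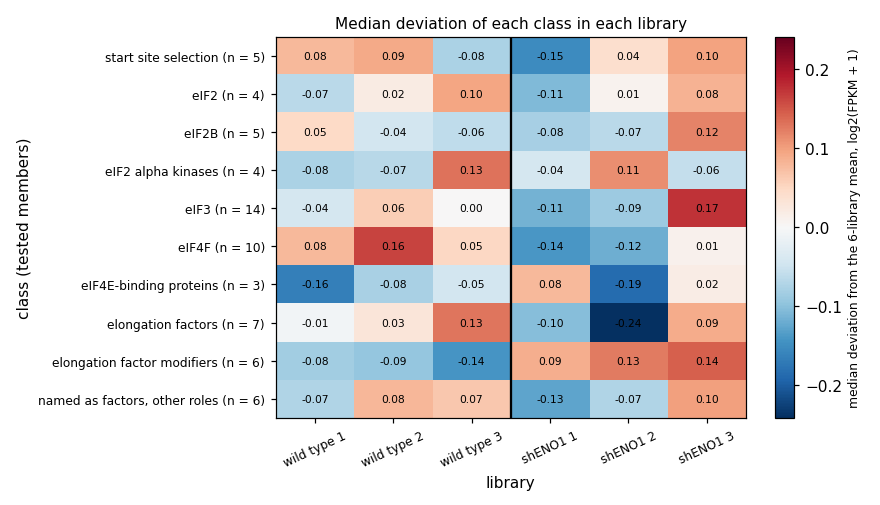
Median over the tested members of each class of the deviation of log2(FPKM + 1) from the 6-library mean, by library, with the value printed in each cell and red for above and blue for below the mean. In 8 of the 10 classes shENO1 library 3 is the highest shENO1 library, and the elongation factor modifiers are the only class in which all 3 shENO1 libraries are above and all 3 wild-type libraries below the mean.

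The factors whose mRNAs are known to begin with a TOP tract were all on the lower side, without any of them passing the test. The list held EEF1A1, EEF1B2, EEF1D, EEF1G, EEF2, EIF3E, EIF3F, EIF3H and EIF4B, of which 8 were tested. All 8 had a log2 fold change below 0, beside 51.9% of all tested genes. Their values ran from -0.38 for EEF1B2 to -0.08 for EEF2, with a median of -0.19, and 0 were called, with 1 to 3 called in 5 of the 18 other settings tried. EEF2 turned to the higher side under quantile normalisation, without wild-type library 3 and without shENO1 library 2, and 7 of 8 were below 0 in those settings. For EEF1A1, EEF1B2 and EIF4B the groups did not overlap. The median deviation of the 8 genes was 0.00, 0.12 and 0.19 in wild type and -0.23, -0.18 and 0.04 in shENO1, so that shENO1 library 3 lay within the wild-type range. Fewer TOP mRNAs per cell and a larger amount of other mRNA cannot be told apart in these relative values.

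**Figure D4:**
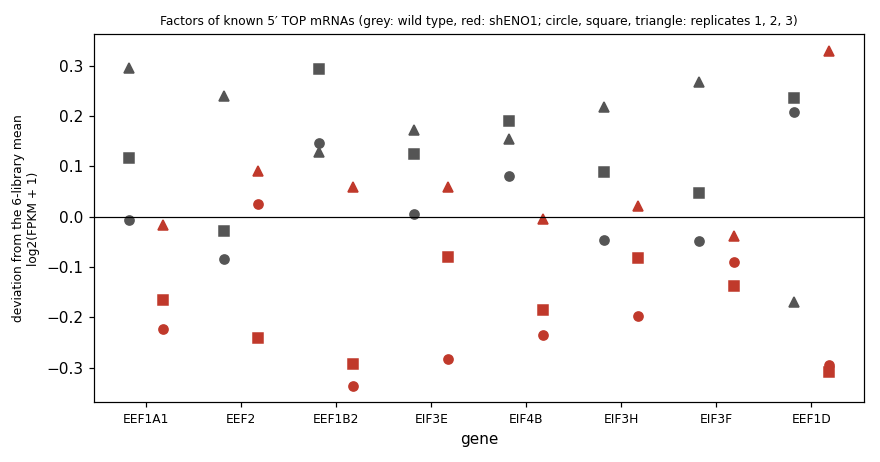
Deviation of log2(FPKM + 1) from the 6-library mean for the 8 tested factors with known 5′ TOP mRNAs, with 1 symbol per library, wild type in grey and shENO1 in red. shENO1 libraries 1 and 2 (circle and square) are the lowest pair for 7 of the 8 genes, and shENO1 library 3 (triangle) lies above 0 for 5 and just below 0 for 3.

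The start sites show the tract itself. RefSeq promoter windows (GRCh38.p14) matched 57 of the 71 genes. Each line below gives 20 bases before and 20 from the annotated start on, 5′ to 3′ on the gene's strand, for TOP genes and for 3 called genes as a contrast. Capitals mark a pyrimidine run that begins with C at the start.
EEF1A1 (chr6:73521013-73521052, minus strand): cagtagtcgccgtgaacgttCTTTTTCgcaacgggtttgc
EEF1B2 (chr2:206159875-206159914, plus strand): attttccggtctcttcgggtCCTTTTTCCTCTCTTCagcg
EEF1B2, other start (chr2:206159589-206159628, plus strand): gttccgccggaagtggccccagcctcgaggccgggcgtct
EEF2 (chr19:3985444-3985483, minus strand): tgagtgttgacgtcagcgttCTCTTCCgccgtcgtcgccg
EIF3F (chr11:7987317-7987356, plus strand): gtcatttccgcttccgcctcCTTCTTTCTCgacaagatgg
EIF4B (chr12:53006436-53006475, plus strand): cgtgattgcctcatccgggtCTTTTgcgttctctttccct
EIF1 (chr17:41688865-41688904, plus strand): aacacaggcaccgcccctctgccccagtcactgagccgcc
EIF1AX (chrX:20141819-20141858, minus strand): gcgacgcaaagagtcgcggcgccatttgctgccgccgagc
EIF2S1 (chr14:67360308-67360347, plus strand): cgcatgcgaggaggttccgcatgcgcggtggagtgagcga

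A C at the start followed by at least 4 bases that are C or T was found in 13 of the 57 matched factors, or in 17.6% of their windows, beside 4.07% of all 35116 windows. Those 35116 windows were not limited to tested genes. The 13 included 5 of the 6 matched genes of the list above. They also included EIF2A, EIF2D, EIF2S3, EIF2S3B, EIF3D, EIF3K, EIF3M and EIF4A2. Among the 13 factors with such a start, 12 had a log2 fold change below 0, with a median of -0.23 and 0 called. Among the 38 tested factors with a window but no such start, 19 were below 0, the median was 0.00, and 5 rose and 2 fell. Cytosolic ribosomal protein genes with the same start pattern (n = 47) had a median of -0.47 and those without it (n = 20) one of -0.32, while the medians of the other tested protein-coding genes were -0.02 (n = 583) and 0.03 (n = 7390). These medians describe annotated starts, not starts measured in U937.

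The E-box CACGTG, the motif that MYC and MAX bind, lay in 15 of the 57 matched factors, or in 20.3% of their windows of 250 bases before to 50 after the start, beside 7.26% of all windows. The motif reads the same on both strands. Of the called genes EIF2B3 and EEF1AKMT4 held it, as did EIF4G1. The stretches around it are shown for these 3 because they are the motif-bearing genes that passed or came nearest to passing, with the motif in capitals.
EIF2B3 (chr1:44986742-44986801, minus strand): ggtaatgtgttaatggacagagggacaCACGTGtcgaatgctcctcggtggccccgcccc
EEF1AKMT4 (chr3:184249422-184249475, plus strand): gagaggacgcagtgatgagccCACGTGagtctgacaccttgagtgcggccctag
EIF4G1 (chr3:184314435-184314494, plus strand): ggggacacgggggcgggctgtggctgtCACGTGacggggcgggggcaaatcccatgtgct
The 13 tested factors with the motif had a median log2 fold change of 0.04, with 2 called higher and 0 lower, and the 38 without it had -0.08, with 3 higher and 2 lower. The ETS-family motif CCGGAAG, searched on both strands, was in 15 of the 57 factors and in 23.0% of their windows beside 10.3% of all, and 0 of its 15 tested genes were called. For both motifs the share of all windows was not limited to tested genes, and a share over tested genes was not computed.

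Other genes of the translation pathway, taken from 6 lists, gave 8 genes that rose and 2 that fell among 50 tested, where 14.3% of all genes were called. Of 12 genes of mTORC1 and its downstream kinases, 3 rose. AKT1S1, the inhibitory subunit PRAS40, had 3.31, 3.15 and 2.94 FPKM in wild type and 7.74, 5.55 and 6.45 FPKM in shENO1 (log2 fold change 0.87, limma adjusted p = 0.0105). MTOR, the kinase, had 8.43, 8.86 and 9.83 FPKM in wild type and 13.2, 13.5 and 12.4 FPKM in shENO1 (log2 fold change 0.48, adjusted p = 0.0203). RPTOR, the subunit that recruits the 4E-binding proteins, had a log2 fold change of 0.54 (adjusted p = 0.0214). The groups were apart in all 3, while the other 9 genes, the S6 kinases and RHEB among them, did not pass and the median of the list was -0.02. LARP1, which binds TOP mRNAs and the cap, rose from 23.6, 22.6 and 24.0 FPKM to 34.4, 33.05 and 30.1 FPKM (log2 fold change 0.46, adjusted p = 0.0233), and was the 1 of 6 tested poly(A)-binding and associated genes to do so.

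The list for the integrated stress response, the programme around eIF2 alpha phosphorylation, held the 2 genes that fell. Both encode the targeting subunits of the phosphatase that removes that phosphate. PPP1R15A, the inducible subunit GADD34, had 153, 165 and 102 FPKM in wild type and 40.4, 33.4 and 62.9 FPKM in shENO1 (3.07-fold lower on the means, log2 fold change -1.62, SE 0.28, limma adjusted p = 0.0161). PPP1R15B, the constitutive subunit, had 62.3, 66.1 and 65.1 FPKM in wild type and 42.1, 44.5 and 36.8 FPKM in shENO1 (1.57-fold lower, log2 fold change -0.64, SE 0.10, adjusted p = 0.0136). The groups were apart for both. ATF4, the transcription factor translated when eIF2 alpha is phosphorylated, had 93.6, 105 and 93.7 FPKM in wild type and 67.4, 64.8 and 84.6 FPKM in shENO1 and did not pass (log2 fold change -0.43, adjusted p = 0.0739), though it did in 6 of the alternatives. Of the 7 tested genes of this list, 4 were below 0 and 3 above. Those above were IMPACT (0.41, limma adjusted p = 0.0513), GCN1 (0.26) and TRIB3 (0.24). All 3 were higher in shENO1 without overlap, and none passed. DDIT3 was below 0 with overlapping groups.

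The other 3 lists gave 4 calls, all of them higher. ABCE1, the ribosome recycling ATPase, rose from 15.4, 14.4 and 17.9 FPKM to 21.6, 25.7 and 23.4 FPKM (log2 fold change 0.54, limma adjusted p = 0.0276), as 1 of 8 tested termination and recycling genes. DPH2, an enzyme that builds diphthamide, the modified histidine of eEF2, rose from 4.05, 4.91 and 4.53 FPKM to 8.07, 8.06 and 8.66 FPKM (log2 fold change 0.76, SE 0.09, adjusted p = 0.00765). It was the 1 of 7 tested hypusine and diphthamide genes that passed. Of 10 mitochondrial translation factors, TSFM, the exchange factor for the mitochondrial elongation factor Tu, and GFM2, a GTPase of mitochondrial ribosome recycling, rose, at log2 fold changes of 0.52 and 0.34 (adjusted p = 0.0432 and 0.0358). MRRF, the mitochondrial ribosome recycling factor of the same list, did not pass (0.06). In that list 9 of 10 genes were above 0 and the median was 0.25.

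**Figure D5:**
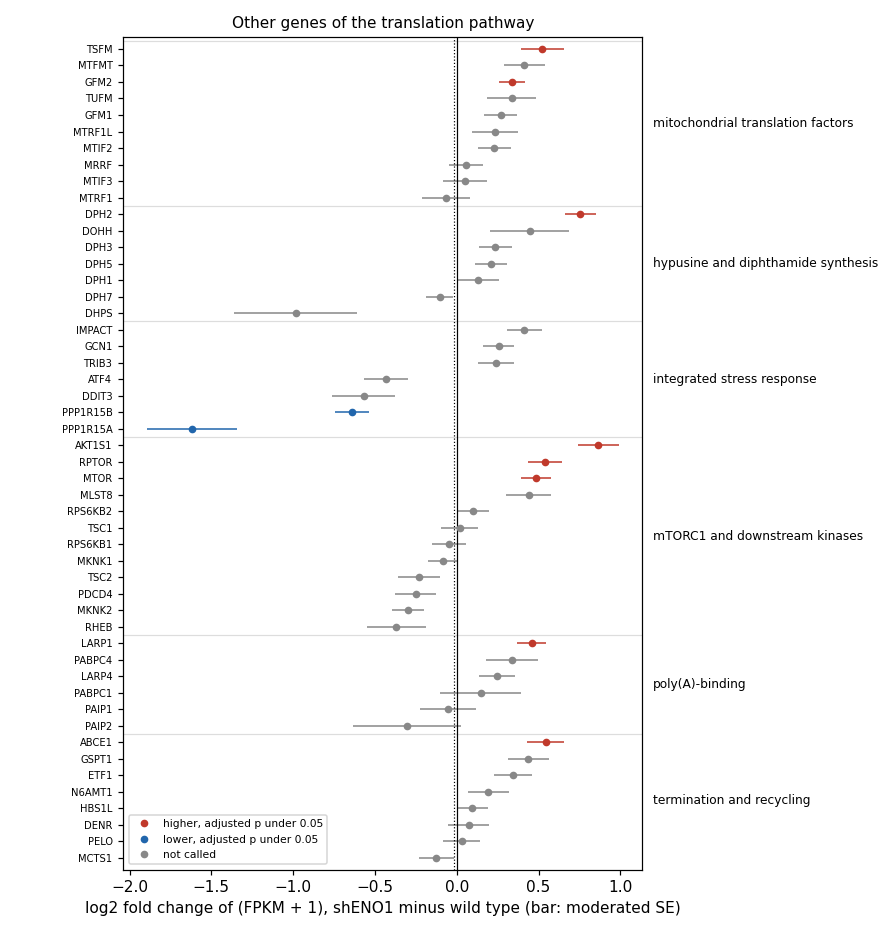
Log2 fold change of (FPKM + 1) in shENO1 minus wild type for 50 tested genes of 6 lists of the translation pathway, with bars for the moderated standard error, red for higher and blue for lower at an adjusted p under 0.05, and a dotted line at the median of all tested genes. The largest drop is that of PPP1R15A (-1.62) and the largest rises are those of AKT1S1 (0.87) and DPH2 (0.76).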

How the data were processed

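RNA-seq of 6 U937 libraries was given as FPKM per gene, deposited by the authors after normalisation with Cuffnorm, per the submitters' processing notes, which also name STAR, Cufflinks and the build hg38 (GRCh38). For versions, strand setting and the handling of shared exons or multi-mapping reads, the state is: not given in the sources used here. Multiplied by gene length, 100% of the values above 0 were whole numbers of reads (tolerance 0.001), which gave the depth. limma 3.58.1 (R 4.3.3) was fitted to log2(FPKM + 1) of the genes whose mean reached 1 FPKM (2 groups, empirical Bayes with trend, Benjamini-Hochberg over 12809 genes, threshold 0.05). Adding 1 understates the change of low genes. Folds are ratios of group means in FPKM, and ± is the SD. Replicate libraries differed by more than counting noise. Partner-gene ratios were tested by exact permutation. Exon overlap used GENCODE 29, and sequences are RefSeq's. The fit was also run on simulated libraries drawn independently. These lack the structure between replicates seen here, so that run does not measure how reliable these calls are.

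Members, classes and lists were chosen with earlier results of these data known. Values per library are given for called members, the 2 most abundant of each class and those without overlap at an absolute log2 fold change of at least 0.5; called pathway genes are named up to 3 a list, and other genes were named after their values were seen. Same-numbered libraries did not deviate together (correlations of -0.08, -0.33 and -0.46), so replicate numbers were not used as pairs. Alternatives were other pseudocounts (0.1, 5), filters, scalings, limma-voom on the recovered reads, a length correction, omitted libraries and a replicate block.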

Additional observations from a re-analysis of the deposited data

How the results depend on the processing

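The 8 called factors kept their direction in every alternative tried. Counts of called factors (6 higher, 2 lower) became 3 and 0 with no filter on FPKM, 6 and 4 under the same FPKM total, 7 and 1 when scaled to nuclear reads (an alternative chosen after seeing the data), and 8 and 10 without wild-type library 3 and shENO1 library 3. Over all genes, the 1007 higher and 828 lower became 445 and 381 with no filter and 1649 and 2033 without those libraries. With each library left out in turn, called factors ranged from 0 to 5 higher and 0 to 2 lower, and calls over all genes from 147 to 914 higher and 134 to 775 lower. With the replicate number as a block, 0 factors were called in either direction, beside 0 higher and 1 lower over all genes. Other pathway genes (8 higher, 2 lower) came to 4 and 1 with no filter, to 5 higher at a mean of at least 5 FPKM, to 14 and 8 without both replicate-3 libraries, to 0 and 0 with the replicate block, and to 1 to 8 higher and 0 to 4 lower with 1 library left out.

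Among the factors and ratios followed, 6 changed sign, none of them called. EEF2 was 0.053 under quantile normalisation and ran from -0.15 to 0.015 with 1 library left out. EIF4H was -0.035 under the same FPKM total, -0.0041 under nuclear scaling, -0.048 with the length trend removed and -0.33 without both replicate-3 libraries, and ran from -0.19 to 0.17 with 1 left out. Without both replicate-3 libraries EIF5A was -0.090, EIF6 -0.050, EIF3CL -0.52 and the log2 ratio of EIF4E2 to EIF4E -0.092. With 1 left out, EIF6 ran from -0.011 to 0.44, EIF3CL from -0.19 to 1.34 and that ratio from -0.028 to 0.28. EIF4G1 passed in 7 of its alternatives. Over the settings tried, the class median of eIF2 ran from -0.083 to 0.14 and that of the eIF2 alpha kinases from -0.046 to 0.11. For the last class, of genes placed in none of the others, the median ran from -0.15 to 0.037. The medians of the remaining classes kept their sign. The cause was not tested. Low read numbers limit EEF1AKMT4 and EEF2KMT.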
